A study of Callosobruchus maculatus with 24 samples.

Results

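The mating effect in male abdomens of Callosobruchus maculatus, a seed beetle whose larvae develop inside legume seeds, was measured as the difference between 3 libraries from abdomens of mated males and 3 from abdomens of virgin males. These 6 libraries were chosen by their labels out of 24, and the effect was described across all genes that passed a filter on low counts, 14563 of the 29812 in the gene table. All beetles were of the strain South India, and the labels name no genotype or agent. They were flash frozen, the abdomen was separated from the combined head and thorax, and RNA from polyadenylated transcripts was sequenced with a stranded Illumina kit. The other 18 libraries are those of female abdomens and of heads and thoraces of both sexes, again virgin or mated with 3 libraries a group. The age of the beetles, the time between mating and freezing, the number of matings and the number of beetles in a library are not stated in the labels. Nothing says that libraries of a group came from separate beetles or cultures, and a p-value here reflects the spread among 3 libraries a group, which may be technical.

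The abdomen of a male seed beetle holds the testes and the accessory glands together with gut, fat body, muscle and cuticle. Sperm are made in the testes, seminal fluid proteins are secreted mainly by the accessory glands, and both are passed to the female at mating. Males of this species are known for transferring an ejaculate that is large for their body size. The RNA of all these organs was sequenced together, and fewer cells of a type and less RNA per cell cannot be told apart. The files do not pair gene IDs with names, so no marker of testis, gland or gut could be looked up and genes are described by ID, level, sex bias and body part.

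Total counts in the 6 male abdomen libraries ran from 8481013 to 9659081, with means of 8672410 ± 275393 (SD, n = 3) after mating and 9205627 ± 409674 (SD, n = 3) before. Sampling noise did not account for the differences within a group, where pairs of libraries had a chi-square per degree of freedom of 6.74 to 12.4. The first principal component of the 6 libraries, with 28.9% of the variance, put the mated libraries at -25.2, -7.17 and -12.6 and the virgin libraries at 13.7, 17.3 and 14.0. Mated replicate 1 stood apart. Male-limited genes, defined by 5 CPM (counts relative to a library total that was scaled by TMM) or more in male abdomens and a level in female abdomens no higher than 1/16 of it, lay at a median of -0.44 log2 units from their virgin mean in that library, against 0.046 and -0.052 in mated replicates 2 and 3. Mated replicate 1 was also the highest of the mated libraries for 162 of the 215 genes called higher after mating. Most results that rest on it are given with and without it.

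After mating, 215 genes were higher and 189 lower in male abdomens at an adjusted p of 0.05 or less (edgeR's quasi-likelihood test with Benjamini-Hochberg adjustment), which is 1.48% and 1.30% of the genes tested and 2.77% together. The other 14159 genes were not called. Among called genes the typical increase was larger than the typical fall. The median standard error was 0.0951 for the called increases and 0.0588 for the called falls. Whether this difference in size follows the standard errors was not tested. Across all genes tested, the 0.05 and 0.95 quantiles of the log2 fold change were -0.725 and 0.706. At an unadjusted p under 0.05 (edgeR), 947 genes were higher and 1601 lower. The 215 genes had a median log2 fold change of 0.59 (quartiles 0.39 and 0.90), and 39 of them (0.268% of genes tested) rose at least 2-fold and 8 at least 4-fold. Folds are fitted, and 3 called increases have a virgin library with no count and 5 called falls a mated library with no count. The 189 decreases had a median of -0.30 (quartiles -0.40 and -0.25), and 10 of them (0.0687%) reached 2-fold and 7 reached 4-fold. Only 5 of these 10 had at least 3 counts in each of the 6 libraries, against 35 of the 39 increases. The count of 2-fold falls was 5 without virgin replicate 3, up to 15 with another library left out, and 3 in a fit of all 24 libraries. At a stricter adjusted p of 0.01, 58 higher and 12 lower genes remained. For all 404 called genes the 3 mated libraries lay on the same side of the 3 virgin libraries in CPM, and so they did for 2924 genes (20.1%) of all those tested, 2520 of which were not called. The genes closest to the threshold on either side had adjusted p-values of 0.0496 and 0.05003.

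The number of calls depended on the fit, and that of the falls most. Without mated replicate 1, 105 genes were higher and 69 lower, of which 104 and 51 were among the 215 and 189. Leaving out any 1 of the 6 libraries left 105 to 172 higher and 61 to 126 lower. In a fit of the 6 male abdomen libraries alone, which estimates the spread without the female libraries, 90 genes were higher and 14 lower, 85 and 7 of them shared, so that 86.5% of calls were increases in place of 53.2%. The increases were 84.5% of calls in a fit of all 24 libraries (256 higher, 47 lower) and 68.3% with scaling by library size only (246 higher, 114 lower). Across all genes the median log2 fold change was -0.064, and it lay between -0.082 and -0.019 over the alternatives.

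**Figure D1:**
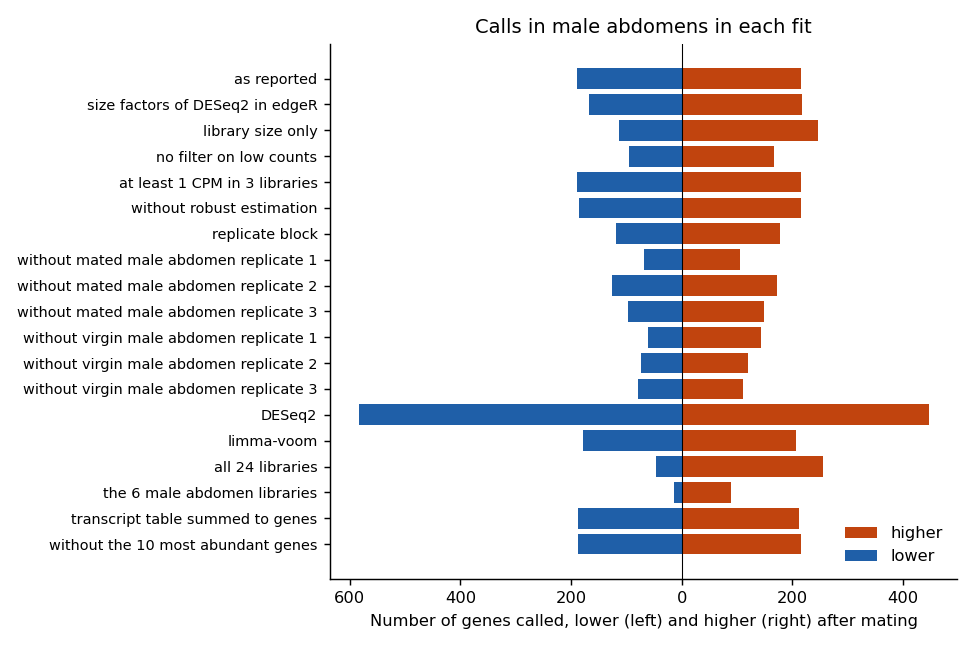
Number of genes called higher (right of 0) and lower (left of 0) in mated than in virgin male abdomens at an adjusted p of 0.05 or less, for the fit as reported and 18 alternatives. The number of falls runs from 14 in the fit of the 6 male abdomen libraries to 584 with DESeq2, and that of increases from 90 to 447.

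The genes that rose were of middling to high level. Their median level over the 6 libraries was 50.3 CPM and that of the genes that fell 98.3 CPM, against 12.7 CPM for all genes tested. In the virgin libraries the CPM of the 215 genes summed to 2.81%, 2.81% and 3.03% of the TMM-scaled library total. In the mated libraries the sums were 4.23%, 4.28% and 4.87%. The 189 genes that fell summed to 3.47% to 3.65% of that total before and 2.93% to 3.00% after mating. Such percentages are not shares of the counts. The CPM of all genes tested summed to a mean of 1079057 in mated and 1072071 in virgin libraries. Of 1356 genes under 1 CPM, which before scaling is worth 8.48 to 9.66 counts in these libraries, 2 were called higher and 1 lower. From 100 to 1000 CPM, 60 of 1561 genes rose and 88 fell, which at 9.48% is the highest share called of the 5 level classes. That class also had the smallest median SE, 0.0737, against 0.321 from 1 to 10 CPM and 0.922 under 1 CPM. Its median absolute log2 fold change was 0.146, against 0.249 and 0.618 in those 2 classes.

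**Figure D2:**
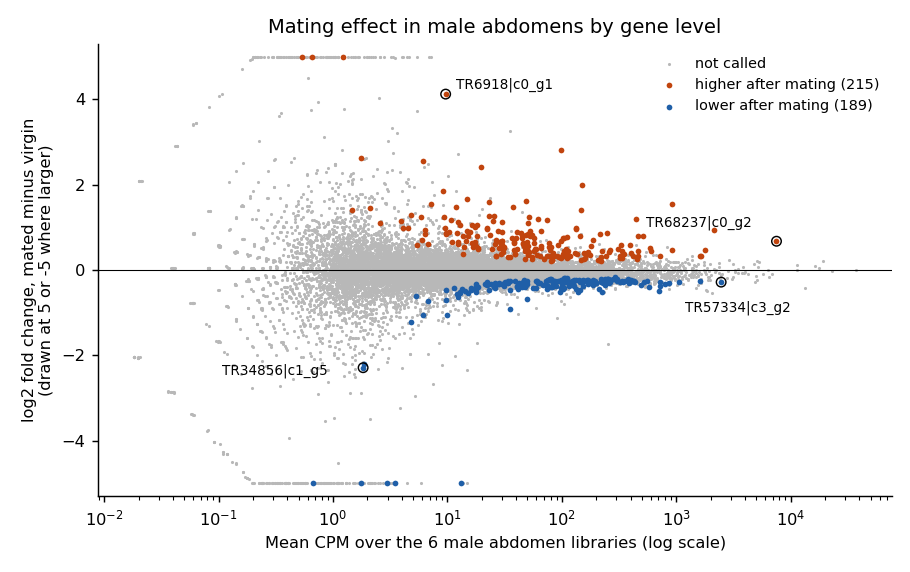
Log2 fold change of each gene tested (mated minus virgin male abdomens, drawn at 5 or -5 where larger) against its mean CPM over the 6 libraries on a log scale, with the 215 genes called higher and the 189 called lower in colour and the 4 named genes ringed. Most called falls form a narrow band with quartiles of -0.40 and -0.25, called increases have quartiles of 0.39 and 0.90, and the called genes drawn at 5 or -5 are at or near 0 counts in a group.

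TR6918|c0_g1 had the largest log2 fold change of the called genes with at least 3 counts in each of the 6 libraries, the set from which the 4 named genes were taken. It stood at 24.5, 19.96 and 10.5 CPM in mated replicates 1 to 3 and at 0.979, 1.09 and 0.950 CPM in virgin replicates 1 to 3. The groups were far apart, and the mated libraries differed more among themselves than the virgin libraries did. The log2 fold change was 4.12 (SE 0.308; edgeR, adjusted p = 0.00034), a 17.4-fold increase, and the call held in all 18 alternatives (adjusted p at most 0.0126). In female abdomens the gene was present in both states, with 10.9 ± 0.696 CPM before mating and 10.6 ± 0.428 CPM after it (SD, n = 3 each). The mated male libraries lay at or above the female levels, from a virgin male level of 8 to 10 counts per library. None of the 6 male head and thorax libraries held a count of it.

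TR68237|c0_g2 had the largest difference in mean CPM among the genes called higher. Its level was 10464, 9229 and 8407 CPM in the mated libraries and 6109, 5416 and 5569 CPM in the virgin libraries. The gene ranked number 9 in male abdomens by level, with 0.570% of the TMM-scaled library total before and 0.937% after mating. The groups did not overlap, and the log2 fold change was 0.68 (SE 0.152, adjusted p = 0.0440 by edgeR). That call rested on all 6 libraries: it ended when any 1 of the 6 libraries was left out, with adjusted p-values of 0.0627 to 0.134. The gene was also higher in mated male heads and thoraces (9873 ± 753 against 8205 ± 225 CPM, log2 0.28, adjusted p = 0.481) and in mated female abdomens (6955 ± 839 against 5134 ± 1125 CPM, log2 0.49, adjusted p = 0.0539), but in neither did the difference pass the test.

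Further increases, whose IDs are not listed here, are ranked in the same set of genes with at least 3 counts in all 6 libraries. The gene with the second-largest fold had 214, 177 and 131 CPM in the mated and 39.2, 19.2 and 14.5 CPM in the virgin libraries (log2 2.81, SE 0.396, adjusted p = 0.00785). The fourth by fold rose from 6.49, 6.78 and 4.87 to 43.0, 27.2 and 29.6 CPM (log2 2.41, SE 0.192, adjusted p = 0.00034). In both, each mated library was at least 3-fold above the highest virgin library. An abundant gene, number 10 by fold and number 3 by difference in CPM, went from 555, 469 and 348 CPM to 1871, 1096 and 1162 CPM (log2 1.55, SE 0.218, adjusted p = 0.00785), with mated replicate 1 well above the other mated libraries. The gene with the second-largest difference in CPM went from 1556, 1318 and 1400.2 to 3123, 2463 and 2894 CPM (log2 0.95, SE 0.0996, adjusted p = 0.00168). Among the 10 genes of that set with the largest log2 fold increase, 8 had no 2-fold sex bias in the abdomen, 1 was male-biased, 1 female-biased and none male-limited. All 10 had adjusted p-values of 0.0108 or less.

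Among decreases in that set, TR34856|c1_g5 had the largest log2 fold change. It was a gene of low level, at 0.360, 0.374 and 1.16 CPM in mated libraries (3, 3 and 9 counts) and at 4.53, 1.97 and 2.61 CPM in virgin libraries. The log2 fold change was -2.29 (SE 0.412, adjusted p = 0.0169 by edgeR). The call ended without mated replicate 1 (0.0665) or mated replicate 2 (0.0543) and in the fit of the 6 male abdomen libraries (0.162). In female abdomens the gene was at 13.6 ± 0.777 CPM before and 12.1 ± 0.986 CPM after mating (SD, n = 3 each), so it was lowest in mated males among the 4 abdomen groups.

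TR57334|c3_g2 had the largest called fall in CPM and ranked number 38 by level. Its values were 2268, 2232 and 2298 CPM in the mated libraries and 2705, 2627 and 2699.7 CPM in the virgin libraries. The change was small and even, at -0.28 on the log2 scale (SE 0.0523; edgeR, adjusted p = 0.0191). Leaving out any 1 library took the adjusted p just past the threshold, to 0.0514 to 0.0656, with a nearly equal log2 fold change of -0.29 to -0.28. The third gene by fall in CPM went from 808, 811 and 819 CPM to 569.9, 590.2 and 627 CPM (log2 -0.49, SE 0.0501, adjusted p = 0.00154). A gene of middle level fell from 48.5, 44.1 and 43.8 to 24.97, 23.3 and 26.4 CPM (log2 -0.91, SE 0.164, adjusted p = 0.0170). The groups were well separated in all 3 of these genes.

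**Figure D3:**
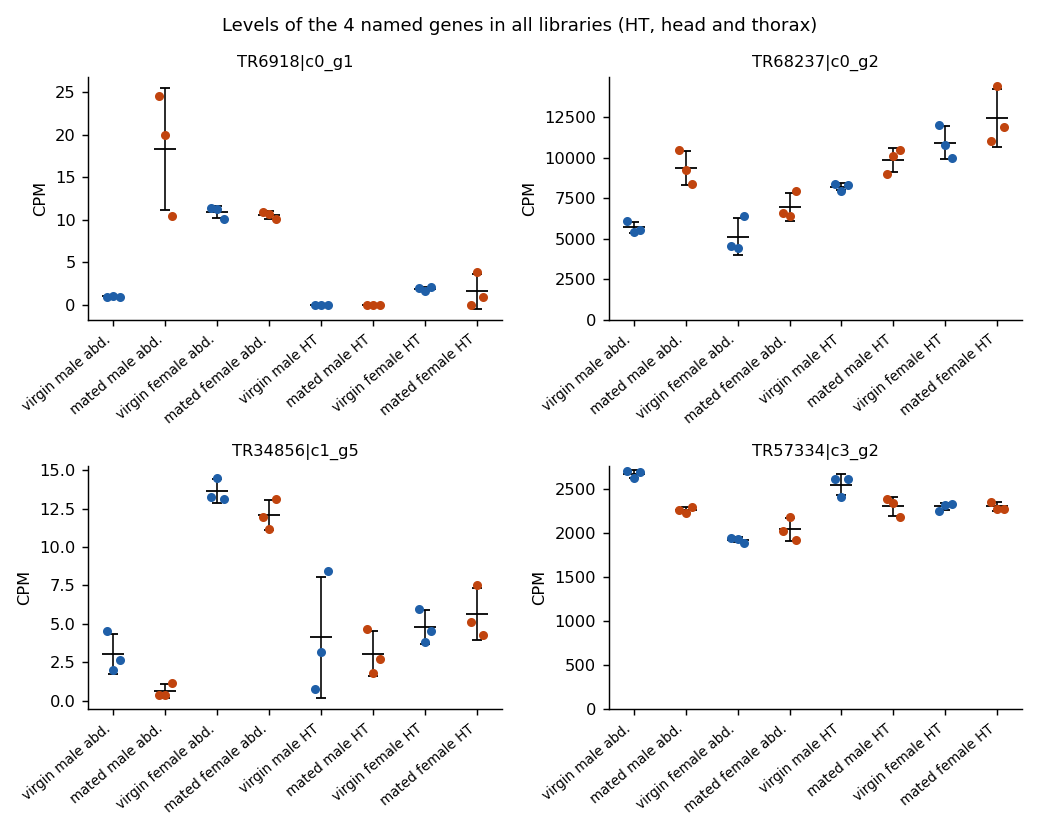
CPM of the 4 named genes in each of the 24 libraries (points, blue for virgin and red for mated, replicates 1 to 3 from left to right), with the mean and SD of each group of 3; HT stands for head and thorax. TR6918|c0_g1 rises from about 1 CPM in virgin male abdomens to 10.5 to 24.5 CPM in mated male abdomens, and TR57334|c3_g2 falls from 2677 ± 43.2 to 2266 ± 32.8 CPM.

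Most calls were of genes without a marked sex difference in level. Genes with no 2-fold sex bias in the abdomen (7239 genes) gave 170 of the 215 increases and 125 of the 189 falls, that is 79.1% and 66.1%, against 49.7% of all genes tested. Of 3975 male-biased genes 27 rose, 24 fell and 3924 were not called. Of 3349 female-biased genes 18 rose and 40 fell. The median SE was 0.132 for genes with no 2-fold sex bias, 0.209 for male-biased and 0.180 for female-biased genes. The median absolute log2 fold changes of these classes were 0.175, 0.191 and 0.198. Whether the shares called follow the standard errors was not tested. In the fit of the 6 male abdomen libraries, genes with no 2-fold sex bias gave 79 of 90 increases and 8 of 14 falls, male-biased genes 7 and 6, and female-biased genes 4 and 0. Without mated replicate 1 the genes with no 2-fold sex bias gave 84 of 105 increases and 42 of 69 falls. With 1 library left out, male-biased genes gave 12 to 23 increases and 4 to 18 falls, and female-biased genes 7 to 18 and 16 to 34. The lowest of these counts came without virgin replicate 3, except the 7, which came without mated replicate 1. With limma-voom male-biased genes gave 39 increases and 45 falls and female-biased genes 8 and 18. Sex bias was taken as the average over virgin and mated abdomens, so it does not use the mating contrast. The shares are descriptions, and no test of a class was made.

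Male-limited genes, the class in which genes specific to testis and male glands would be counted, gave few calls in the fit as reported and more with other tools. Of 980 such genes 2 rose and 3 fell, a share of 0.510% against the 2.77% of all genes, with a median standard error of 0.195 against 0.164 for all genes. With limma-voom, which called 207 genes higher and 178 lower in all, 7 male-limited genes were higher and 14 lower. With DESeq2, which called 447 genes higher and 584 lower in all, 8 male-limited genes were higher and 37 lower. Male-limited genes were 6.73% of all genes tested. Without mated replicate 1 the counts were 1 and 0, and without mated replicate 2 they were 0 and 7. Their median log2 fold change was -0.18, but this rested on mated replicate 1: without it the median was -0.040, and with any other library left out it was -0.31 to -0.11. The 1491 genes enriched at least 8-fold in the male abdomen over the male head and thorax had 7 increases, 8 falls and a median of -0.17, which was -0.025 without mated replicate 1. The 54 male-limited genes at 1000 CPM or more had a median of 0.003. The CPM of male-limited genes summed to 32.6%, 30.9% and 30.5% of the TMM-scaled library total in virgin replicates 1 to 3. In mated replicates 1 to 3 the sums were 29.9%, 32.1% and 34.1%, and the groups overlapped. The 20 most abundant genes in male abdomens, 12 of them male-limited, summed to 21.4% of the TMM-scaled library total before and 22.3% after mating. TR68237|c0_g2, which is not male-limited, was the only called gene among those 20 in the fit as reported.

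**Figure D4:**
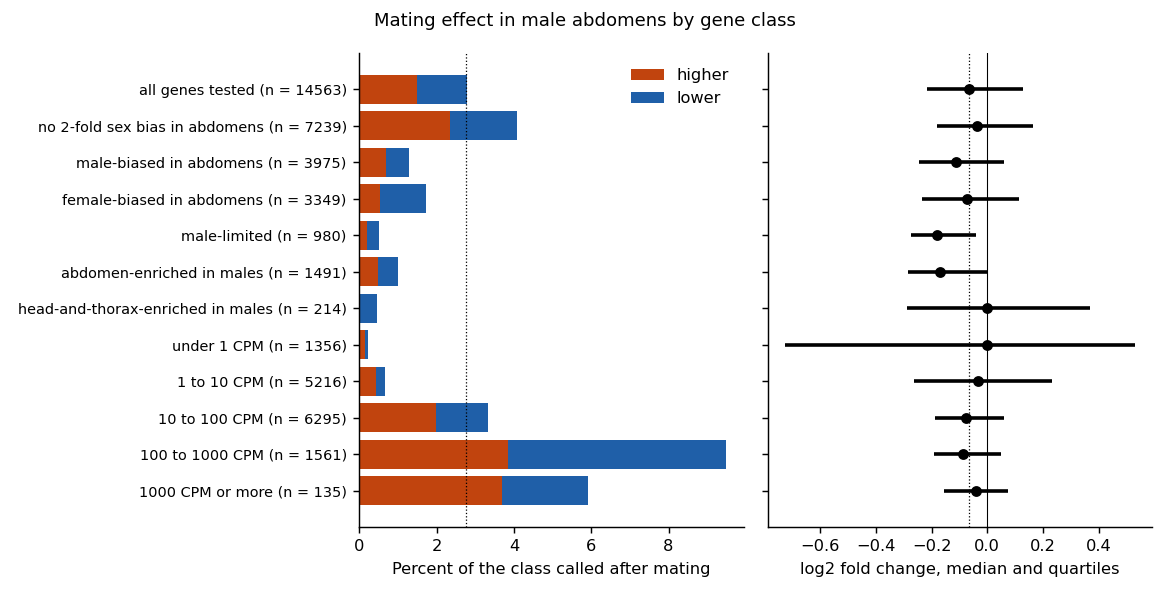
Left, percent of each gene class called higher (red) or lower (blue) in mated than in virgin male abdomens, with a dotted line at the 2.77% of all genes tested. Right, median log2 fold change of each class (points) and its quartiles (lines), with a dotted line at the all-gene median of -0.064. Classes of sex bias, male limitation, body part and level overlap each other, and the share called in the fit as reported is lowest in male-limited, head-and-thorax-enriched and low-level genes.

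The same genes were compared between mated and virgin males in the head and thorax, which share no library with the abdomens, though the labels do not say whether they came from the same beetles. Of the 215 genes called higher in abdomens 213 could be tested there, and 190 of these (89.2%) were also higher in mated males, against 46.0% of all 13051 genes tested in the head and thorax. Of the genes called higher without mated replicate 1, 89.5% were higher there too. The 213 genes had a median log2 fold change of 0.25 in the head and thorax, against 0.59 for the 215 in the abdomen. Of the 39 genes that rose at least 2-fold in the abdomen, 37 could be tested there, with 28 higher and 7 lower. The gene with the second-largest fold described above stood at log2 -3.08 there (edgeR, adjusted p = 0.588). Only 10 genes passed the test in the head and thorax (0.0766%), 9 higher and 1 lower, and 8 of the 9 were among the 215. Those 8 rose by log2 0.24 to 1.47 in the abdomen and by 0.53 to 1.35 in the head and thorax. Of the 189 genes called lower 187 could be tested, 143 were lower (76.5%) and none passed edgeR's test, with a median of -0.10. Of all genes tested in the head and thorax, 7002 of 13051 were lower. In the fit of the 6 male abdomen libraries 45.5% of its few called falls were lower there. At an unadjusted p under 0.05, 102 of the 213 and 33 of the 187 genes passed, against 1257 of all 13051. For the called genes the rank correlation of the log2 fold changes between the body parts was 0.643 over 400 genes, as a description across genes, which are not independent replicates. Over all 12336 genes tested in both it was 0.271. The 400 genes were chosen on the abdominal change, which leaves few values near 0, so these coefficients cannot be compared. Pearson's coefficient over the 400, which include genes at 0 counts in a group with very large fitted fold changes, was 0.101.

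A test of the difference between the body parts called 3 of 15558 genes (0.0193%), of which 2 were among the 404. The first rose from 78.9 ± 5.85 to 215 ± 20.4 CPM in the abdomen and from 156 ± 9.19 to 242 ± 13.6 CPM in the head and thorax (SD, n = 3 each), a larger change in the abdomen (difference in log2 fold change 0.82, adjusted p = 0.0194). The second was the gene that fell from 813 ± 5.76 to 596 ± 28.7 CPM in the abdomen, and it stood at 128 ± 14.96 CPM before and 154 ± 8.56 CPM after mating in the head and thorax (difference -0.72, adjusted p = 0.0113). Without 1 library, 0 to 4 such genes were called, and 0 without mated replicate 1. The test cannot call a gene with no count in any male head and thorax library. TR6918|c0_g1, the named gene with the largest increase, is such a gene (difference 4.16, SE 8694). At an unadjusted p under 0.05 the difference passed for 117 of the 215 and 54 of the 189 genes, against 1451 of all 15558, but these genes were chosen on the abdominal change that enters the difference.

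**Figure D5:**
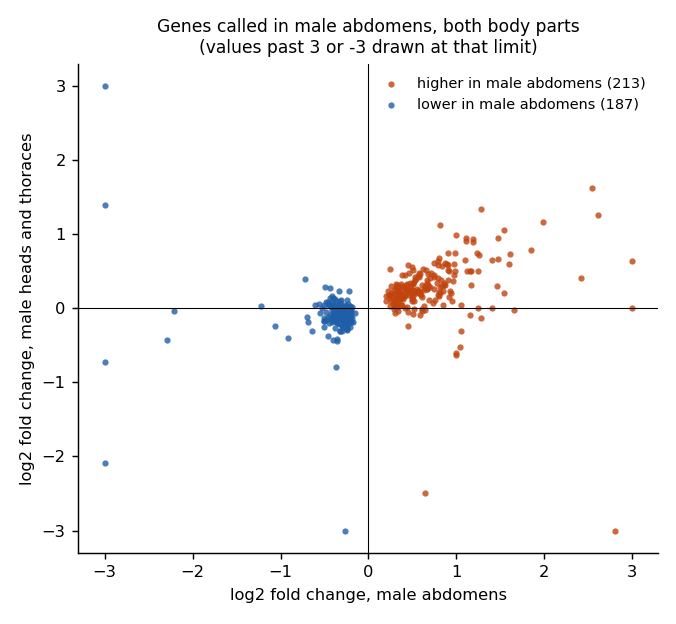
Log2 fold change (mated minus virgin) in male heads and thoraces against that in male abdomens for the 400 called genes tested in both, with values past 3 or -3 drawn at that limit. Of the genes called higher in the abdomen, 190 of 213 lie above 0 on the vertical axis, and of those called lower, 143 of 187 lie below 0.

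The genes called in male abdomens were also compared between mated and virgin female abdomens. Of all genes, 8.18% were called higher and 6.28% lower after mating in female abdomens. Of the 215 genes that rose in males 40 also rose in females, 16 fell and the rest were not called. Of the 189 that fell in males 21 fell in females and 27 rose. In females the difference was positive, called or not, for 63.7% of the 215 and 51.9% of the 189, against 49.5% of all genes tested. The sex-by-mating difference was tested directly and was called for 8.28% of all genes. It was called for 112 of the 215 and 106 of the 189, each with the sign of the male change, but the genes were chosen on the male change, which favours such calls. Among genes not called in females, the difference was called for 94 of those that rose and 79 of those that fell in males. The count of 218 was 106 to 161 when 1 library was left out, and 106 without mated replicate 1. The gene that fell from 813 to 596 CPM in male abdomens changed in the opposite direction in female abdomens (log2 0.57, adjusted p = 0.000523, and for the difference adjusted p = 0.000164). Across all genes the rank correlation between the male and female effects was 0.0026.

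At the level of transcripts, 48 of 27729 tested were higher (0.173%) and 20 lower (0.0721%) in mated male abdomens, 0.245% together. They came from 67 genes, of which 49 were also called as genes. Without mated replicate 1, 37 transcripts were called. In TR68237|c0_g2 the increase was steeper in its minor transcript, number 4, which went from 122 ± 39.9 to 518 ± 117 CPM (log2 2.03, adjusted p = 0.0197). Its main transcript, number 1, went from 5576 ± 325 to 8848 ± 1016 CPM (log2 0.61, adjusted p = 0.195). In TR57334|c3_g2 transcript number 12 held most of the counts and fell from 2609 ± 45.8 to 2195 ± 25.4 CPM (log2 -0.31, adjusted p = 0.0407). TR6918|c0_g1 and TR34856|c1_g5 have 1 transcript each.

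Shares of transcripts within a gene were compared as well. Of 5874 genes with at least 2 transcripts to test, 17 (0.289%) showed a shift of transcript shares at an adjusted p of 0.05 or less (edgeR's diffSpliceDGE), and 6 of these changed their leading transcript. Of the 17 genes 2 were called as genes, as were 220 of all 5874. In simulated counts this test made more false calls than its threshold allows, so its values are given as descriptions. In a gene at 56.5 CPM whose total was not called (log2 0.01, adjusted p = 0.965), a transcript took 64.8%, 72.1% and 68.3% of the gene's counts in virgin libraries and 0%, 4.95% and 2.78% in mated libraries. In a gene at 632 CPM a transcript held 9.02%, 9.11% and 10.8% in the mated libraries and had no count in the virgin libraries. In the gene with the second-largest rise in CPM described above, a transcript held 81.6%, 82.7% and 80.5% in virgin and 99.3%, 96.4% and 98.6% in mated libraries. How the counting program divides reads among transcripts that share sequence is not known here, and whether the shifts come from it was not tested.

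A few genes had counts in only the mated or only the virgin male abdomens. There were 10 genes that had at least 3 counts in each mated library and none in the virgin libraries, and 13 with the reverse. They reached 0.950 to 13.8 CPM and 1.33 to 29.8 CPM in the group where they were found. Set against a floor of 3 counts over the group at 0, these genes were 8.20- to 121-fold higher and 10.6- to 241-fold lower. The floor takes no account of the spread among libraries, so these are not established minimum folds. The genes at 121- and 241-fold were not called (edgeR, adjusted p = 0.124 and 0.156). They had no count in 14 and 12 of the 24 libraries. Only 3 of the 10 and 4 of the 13 were called, with adjusted p-values from 0.00282 to 0.229 over all 23. Of the 23 genes, 22 share the leading TR number of the ID with another tested gene, against 46.6% of all genes tested, and 19 had no count in at least 1 female abdomen library. Whether reads shared between such genes were counted for another gene of the set was not tested. Called genes that share a TR number formed 11 sets of 24 genes, of which 5 sets rose, 3 fell and 3 were mixed.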

How the data were processed

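The authors deposited a gene table and a transcript table of estimated counts (expected counts), not normalised, with 1 column for each of 24 libraries; per the series' design each was sequenced on 2 lanes. Per the submitters' processing notes, the tools were Bowtie 0.12.6, Trimmomatic 0.3, cutadapt 1.2.1 and FastQC 0.11.2. Not given in the sources used here are the counting program, the reference and whether counting used strand, so reads of near-identical, overlapping or antisense genes may have been split in unknown ways and every single gene carries that uncertainty. Of the deposited gene values 14.1% are not whole, and estimated counts were rounded before testing.

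The 12 abdomen libraries were fitted together with edgeR 4.0.16 (R 4.3.3) so that 4 groups shared an estimate of the spread: TMM scaling, the filterByExpr filter by group, 1 mean per group, the robust quasi-likelihood test and Benjamini-Hochberg adjustment over all genes tested, with a threshold of 0.05. A standard error is the absolute log2 fold change over the square root of F. Heads and thoraces were fitted likewise (13051 genes), and body parts were compared over all 24 libraries (15558 genes). CPM values use TMM factors over 24 libraries, so their ratio can differ slightly from the fitted fold. Sex-biased genes passed the threshold and differed at least 2-fold between the sexes, averaged over virgin and mated abdomens. Genes enriched in a body part of males were at least 8-fold different. Transcript shares were tested with diffSpliceDGE (Simes p per gene).

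In each direction 2 genes were named, that with the largest log2 fold change and that with the largest difference in mean CPM, among called genes whose groups did not overlap and that had 3 counts or more in all 6 libraries. The comparison, the classes and this rule were chosen with earlier results of these data known. Alternatives used DESeq2 1.42.0, limma-voom (limma 3.58.1), other scaling, filters and sets of libraries, a replicate block, the transcript table, and each library left out in turn. The procedures were tested on simulated data. Counting error limits low genes: the male abdomen libraries hold 8481013 to 9659081 counts. Figures were drawn with matplotlib 3.10.9.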

Additional observations from a re-analysis of the deposited data

Results flagged for a closer look

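For 3 of the 4 named genes the mating effect differed between male and female abdomens in the test of that difference (edgeR, adjusted over all genes tested). The genes were named for their change in males. For TR6918|c0_g1 the log2 fold change was 4.12 higher in males than in females (SE 0.391, adjusted p = 0.00126), with a log2 fold change of 0.0016 in females. The effect of TR34856|c1_g5 differed by -2.17 (SE 0.505, adjusted p = 0.0251), with a log2 fold change of -0.12 in females that did not pass the test (adjusted p = 0.859). The effect of TR57334|c3_g2 differed by -0.42 (SE 0.0739, adjusted p = 0.00823), with a log2 fold change of 0.14 in females that did not pass the test (adjusted p = 0.103). For TR68237|c0_g2 the difference, 0.18, did not pass (SE 0.214, adjusted p = 0.685).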

How the results depend on the processing

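The number of falls moved most: 189 as reported, 114 with library size only, 96 with no filter on low counts, 584 with DESeq2, 47 in a fit of all 24 libraries and 14 in a fit of the 6 male abdomen libraries. Increases, 215 as reported, were 447 with DESeq2 and 90 in the fit of 6 libraries, and between 166 and 256 in the other fits that kept all 6 libraries. With 1 library left out there were 105 to 172 increases and 61 to 126 falls. The cause of these differences was not tested. Replicate numbers did not pair the samples (correlation of same-numbered deviations 0.0742, 0.0181 and -0.113), and the fit with a replicate block called 177 increases and 119 falls, 25 transcripts in place of 68 and 164 genes in place of 218 for the difference from females. With the block the call of TR68237|c0_g2 ended (adjusted p = 0.0568).

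The median log2 fold change of all genes, -0.064, was -0.032 with library size only, -0.020 with no filter, -0.019 with all 24 libraries, -0.023 with the 6 libraries and -0.082 to -0.045 without 1 library. Increases were 53.2% of calls as reported and 63.4% with no filter, 70.1% without virgin replicate 1 and 43.4% with DESeq2. Genes whose effect differed from females, 218 as reported, numbered 144 with no filter and 106 to 161 without 1 library. Those that differed from the head and thorax, 2 as reported, numbered 0 to 4 without 1 library. Called transcripts, 68 as reported, numbered 28 to 96 without 1 library and 1 in the fit of 6 libraries. Genes with shifted transcript shares, 17 as reported, numbered 13 to 24 without 1 library and 26 in the fit of 6 libraries. The share of called falls that were negative in the head and thorax, 76.5%, was 45.5% for the few falls called in the fit of 6 libraries. TR57334|c3_g2 also lost its call in the fit of 6 libraries (0.162), and TR34856|c1_g5 with limma-voom (0.0674) and all 24 libraries (0.0911). The call of TR68237|c0_g2 ended without the filter too (0.0539), and it has no value in the fit without the 10 most abundant genes, to which it belongs.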

Other observations

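Gene counts and the sums of their transcripts differed more in male abdomens than elsewhere. In the 6 male abdomen libraries 6.37% to 7.24% of gene counts were not found in the transcript table, against 1.02% to 1.495% in the other libraries. A pair of genes, ranked number 1 and number 5 by level in male abdomens and both male-limited, accounted for 75.1% of that gap. Neither was called after mating. Of the 404 called genes 103 had a gap of over 0.5 counts in a male abdomen library, as had 3024 of the 14563 genes tested. With the transcript counts summed to genes, 212 genes were higher and 187 lower after mating, 206 and 181 of them shared with the fit of the gene table.

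Spread among libraries of a group was slightly larger after mating. Over 9817 genes with a mean of at least 5 CPM, the median SD of log2 CPM was 0.134 in mated and 0.1197 in virgin male abdomens, and 56.1% of these genes had the larger SD in the mated group. These values include mated replicate 1, which stood apart, and were not computed without it. The difference in spread was not tested.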
